A study of Mus musculus with 2 samples.

Results

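The genes that control the processing of the sterol regulatory element-binding proteins (SREBPs) were examined in liver RNA of mice lacking apolipoprotein E. They were chosen by name: Insig1, Insig2, Scap, Srebf1, Srebf2, Mbtps1 and Stard4. Of these 7 genes, 6 were named by 12 probe sets that carry a single gene symbol, of 22626 probe sets in all, and Insig1 was not analysed here. These 12 probe sets are every one found by the rule, and 9 of them passed the signal minimum described below. The genes were picked with their values on these arrays in view, so the values are given as a description.

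The mice were male, apolipoprotein E-deficient, of C57BL/6J background and labelled as 2 months old, and each array carried one pool of their liver RNA. One pool came from animals on a Western diet with 0.01% oleanolic acid, a plant triterpenoid, at 10 mg/kg/day for 11 weeks, and the other from animals on the Western diet without it. The growth protocol of both samples mentions oleanolic acid, so the groups follow the titles and the diet labels. How many mice made up a pool and at what hour livers were taken is not stated in the labels. With 1 array per diet there is no replicate and no test. Each difference describes these arrays, and fewer cells of a type and less RNA per cell cannot be told apart in such pools.

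SREBPs are transcription factors made as precursors in the membrane of the endoplasmic reticulum, where they are bound to the escort protein SCAP. When sterols are scarce, SCAP carries them in COPII vesicles to the Golgi, where a pair of proteases cuts them and frees the part that enters the nucleus. INSIG proteins hold SCAP in the endoplasmic reticulum when sterols are plentiful. In mouse liver, Insig2 is transcribed from alternative promoters, one of them liver-specific and repressed by insulin. The clock repressor REV-ERB alpha is known to shape its daily rhythm.

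Windows around annotated start sites are shown for Insig2, because its probe sets gave the largest difference among the genes. The Srebf2 window is shown because it alone, of all windows searched, held a sterol regulatory element core. The sequences are from RefSeq, build GRCm38.p6, from 250 bases before to 50 bases after each start, read 5′ to 3′ on the gene's strand. Of the 7 genes, 6 had such windows, 11 in all, with 3 for Insig2, and all 11 were searched. Capitals mark matches on either strand to any of 4 motifs. The core of the sterol regulatory element was searched as TCACCCCA. An E-box, the site of basic helix-loop-helix factors, was searched as CACGTG. The half-site bound by nuclear receptors was searched as AGGTCA. The CCAAT box, a site of the factor NF-Y, was searched by the letters of its name, and no matches overlapped in the windows shown.
Insig2 start, chr1:121332540-121332839 (minus strand): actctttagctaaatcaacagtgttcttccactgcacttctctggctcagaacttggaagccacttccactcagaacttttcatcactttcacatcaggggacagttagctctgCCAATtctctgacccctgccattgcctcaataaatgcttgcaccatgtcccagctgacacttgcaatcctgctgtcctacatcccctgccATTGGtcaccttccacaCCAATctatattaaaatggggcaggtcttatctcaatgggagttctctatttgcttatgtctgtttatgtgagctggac
Insig2 start, chr1:121327975-121328274 (minus strand): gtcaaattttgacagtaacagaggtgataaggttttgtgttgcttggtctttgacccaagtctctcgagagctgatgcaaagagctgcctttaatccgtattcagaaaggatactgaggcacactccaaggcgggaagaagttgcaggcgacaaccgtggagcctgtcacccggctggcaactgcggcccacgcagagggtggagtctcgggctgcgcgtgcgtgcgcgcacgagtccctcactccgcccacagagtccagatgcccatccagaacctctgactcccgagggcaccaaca
Insig2 start, chr1:121327629-121327928 (minus strand): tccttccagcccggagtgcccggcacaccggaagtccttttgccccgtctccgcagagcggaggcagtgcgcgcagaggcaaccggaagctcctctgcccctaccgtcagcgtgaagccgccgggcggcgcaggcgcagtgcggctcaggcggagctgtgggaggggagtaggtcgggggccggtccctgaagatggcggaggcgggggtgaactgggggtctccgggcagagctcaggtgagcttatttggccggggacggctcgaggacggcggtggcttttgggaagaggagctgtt
Srebf2 start, chr15:82147019-82147318 (plus strand): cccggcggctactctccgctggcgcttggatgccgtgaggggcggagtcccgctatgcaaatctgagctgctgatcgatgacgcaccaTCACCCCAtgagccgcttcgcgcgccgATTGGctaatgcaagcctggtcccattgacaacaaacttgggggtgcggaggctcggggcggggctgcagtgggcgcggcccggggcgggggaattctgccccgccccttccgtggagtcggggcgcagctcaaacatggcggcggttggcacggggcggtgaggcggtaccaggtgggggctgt

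The Srebf2 window held TCACCCCA at -162 from its start and a reverse CCAAT box at -135. The sterol element core was found in 1.56% of the 32851 mouse windows of this length. CCAAT boxes were in 37.4% of them, and the first Insig2 window held 3, at -136, -46 and -29, the one at -46 in reverse. None of the 3 Insig2 windows held the sterol core, the E-box (7.15% of all windows) or the half-site (16.3%). Among the windows not shown, those of Scap and Insig1 held an E-box, and that of Insig1 a half-site. CCAAT boxes were also found in windows of Insig1 and Srebf1. Such a match is a run of letters in a short window and not a binding site, and which start was used was not measured here.

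Insig2, the endoplasmic reticulum anchor of SCAP, gave the largest difference among the measured genes of the pathway core. Probe set 1417980_a_at had a signal of 1331 in the oleanolic acid array and 626 in the control array. Probe set 1417981_at had 1841 in the oleanolic acid array and 820 in the control array. Probe set 1417982_at had 1677 in the oleanolic acid array and 653 in the control array. All 3 probe sets were higher in the oleanolic acid array, and the lowest of the oleanolic acid signals, 1331, lay above the highest control signal, 820. Signals are linear units scaled alike on both arrays, and the log2 ratio is oleanolic acid over control. The 3 log2 ratios were 1.09, 1.17 and 1.36, or 2.13-, 2.24- and 2.57-fold.

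The gene's log2 ratio was 1.21 ± 0.14 (SD, n = 3 probe sets), a 2.31-fold difference. The error is the SD between probe sets of the gene. It covers disagreement between the gene's probe sets on these arrays. Error shared by a whole array and variation between mice are not covered. A gene counted as measured when at least 1 probe set reached its array's median signal, 59.3 in the oleanolic acid array and 61.5 in the control array. Insig2 ranked as number 16 from the top of 7137 measured genes, and as number 3 of the 1561 in the brightest of 4 signal bands. Of the 783 genes with 3 or more measured probe sets none had a higher log2 ratio, though some lay further from 0 on the lower side, such as Cela3b, a pancreatic elastase gene, at -1.76.

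**Figure D1:**
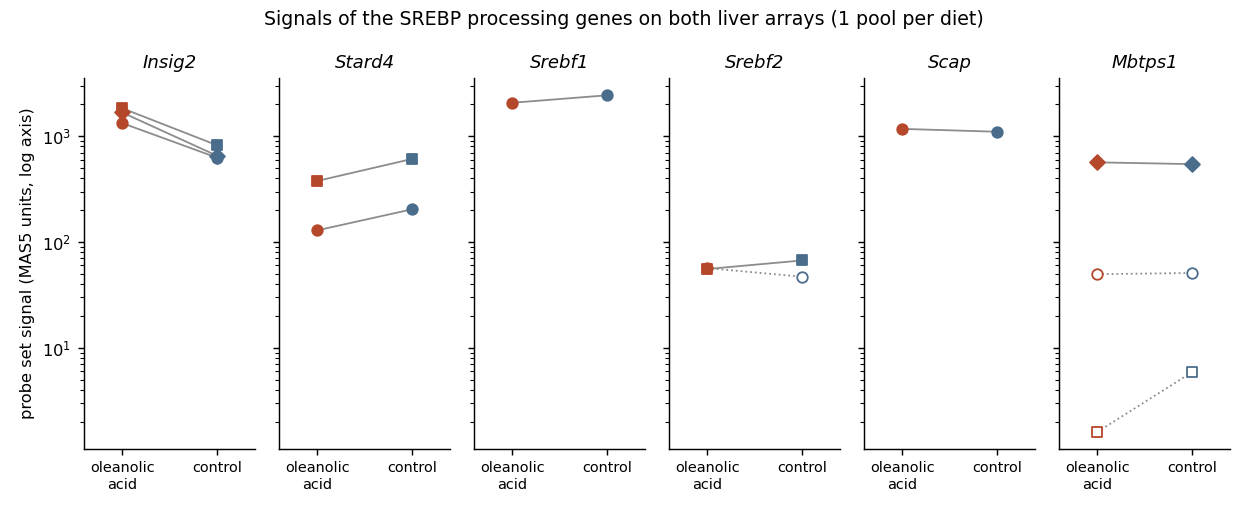
Signal of every probe set of the 6 genes (MAS5 units, log axis) in the oleanolic acid array (left, red) and the control array (right, blue). Lines join the same probe set, and open symbols with dotted lines are the 3 probe sets under the signal minimum. The 3 Insig2 lines slope down to the control side and both Stard4 lines slope up to it.

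Against the size of 1.5 named in the submitters' design text, none of the 6 measured genes passed, where 0.392% of all measured genes did in either direction, 0.112% above and 0.28% below. Above a log2 ratio of 1 there was 1 of 6, Insig2, against 0.392% of all measured genes. Below -1 there was none, against 0.631%, and past 1 in either direction the background was 1.02%. Past 0.5 there were Insig2 above and Stard4 below, where 2.63% of all measured genes were above 0.5 and 3.24% below -0.5. The genes were chosen on this contrast, so nothing is read from these shares. The median of the 6 log2 ratios was -0.09, with 3 genes above 0 and 3 below, beside a median of 0.0012 over all measured genes.

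Stard4, a soluble carrier that moves cholesterol between membranes and is itself an SREBP target, was lower in the oleanolic acid array with both of its probe sets. Probe set 1429239_a_at had a signal of 129 in the oleanolic acid array and 204 in the control array. The brighter 1429240_at had 377 in the oleanolic acid array and 610 in the control array. The control signal was 1.58 and 1.62 times the oleanolic acid signal in the pair. The log2 ratio of the gene was -0.68 ± 0.02 (SD, n = 2 probe sets), and it ranked as number 114 from the bottom of all measured genes. The pooled probe set SDs at the signals of the pair were larger, 0.24 and 0.17.

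The SREBP genes themselves lay within 0.5 of 0. Srebf1, which encodes the factor that mainly drives fatty acid synthesis genes, had a signal of 2071 in the oleanolic acid array and 2439 in the control array. Its 1 probe set gave a log2 ratio of -0.24, larger in size than 0.13, the pooled SD between probe sets of one gene in its signal band. That SD does not cover error shared by an array or variation between mice. The value lay inside the central 95% of measured genes (-0.56 to 0.51). Isoforms of Srebf1, which start from different promoters, were not told apart.

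Srebf2, which encodes the factor that mainly drives cholesterol synthesis genes, was dim. Probe set 1452174_at had a signal of 55.5 in the oleanolic acid array and 66.9 in the control array, a log2 ratio of -0.27. The other, 1426744_at, was under the signal minimum, with 56.6 in the oleanolic acid array and 46.9 in the control array, a log2 ratio of 0.27. The pair pointed in opposite directions by the same amount, each by about the pooled probe set SD of 0.27 at this signal, so no direction was measured for Srebf2. With every probe set counted as measured its log2 ratio was 0.001, and with the floor at the array median it was -0.17.

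The escort and the site-1 protease were close to 0. Scap had a signal of 1173 in the oleanolic acid array and 1102 in the control array (log2 ratio 0.09, probe set SD 0.13). Mbtps1, the protease that makes the first cut in SREBPs and also activates other membrane-bound factors, had 566 in the oleanolic acid array and 545 in the control array with 1448240_at. Its log2 ratio was 0.06 (probe set SD 0.17). For both genes the log2 ratio was smaller than the probe set SD. The other Mbtps1 probe sets were under the signal minimum: 1431385_a_at had 49.6 in the oleanolic acid array and 50.9 in the control array. For 1431386_s_at the signals were 1.6 in the oleanolic acid array and 5.9 in the control array, each under the floor of its array (10.1 in the oleanolic acid array and 10.7 in the control array), so it gives no ratio.

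**Figure D2:**
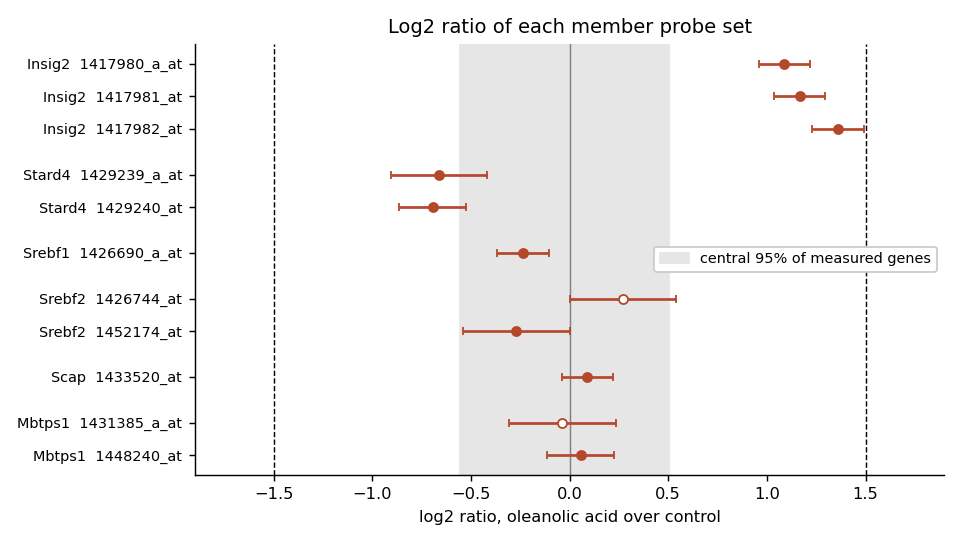
Log2 ratio, oleanolic acid over control, of 11 of the 12 probe sets (the one with both signals under the floor is left out). Bars are the pooled SD between probe sets of one gene at that signal, open circles are under the signal minimum, the grey band holds the central 95% of measured genes (-0.56 to 0.51) and dashed lines mark 1.5 in either direction. All Insig2 probe sets lie right of the band and both Stard4 probe sets left of it, while the others lie inside.

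**Figure D3:**
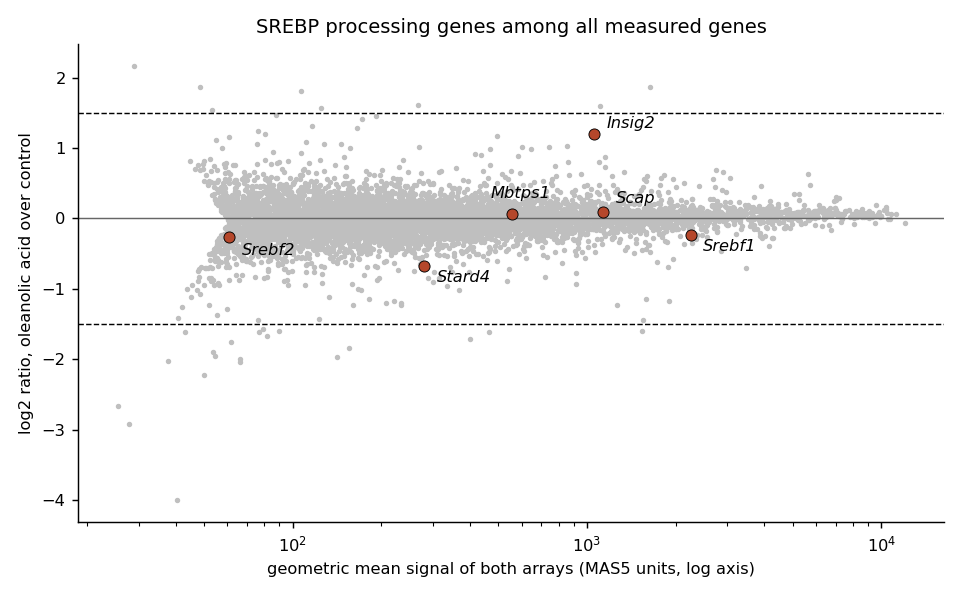
Log2 ratio, oleanolic acid over control, against the geometric mean signal of both arrays (MAS5 units, log axis) for 7137 measured genes in grey, with the 6 genes in red. Dashed lines mark 1.5 in either direction. Insig2 (1.21) stands above most genes of like signal and Stard4 (-0.68) below them.

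The other measured genes for the transport, retention and turnover of SREBPs were close to 0. Of 16 genes listed for vesicle transport, retention and turnover, 12 were measured, and 12 of 12 lay within 0.5 of 0 with a median of -0.05. Over all measured genes, 5.87% lay past 0.5 in either direction. COPII genes had the largest values. Sec31a, an outer coat gene, had 362 in the oleanolic acid array and 435 in the control array (log2 ratio -0.27). Sec23b was at -0.22, Sec24b at -0.21 and the coat GTPase gene Sar1a at -0.11 ± 0.04 (SD, n = 2 probe sets). Mbtps2, the gene of the second protease, was not analysed here.

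Among genes of sterol-regulated protein degradation in the endoplasmic reticulum, 9 of 14 were measured, with a median of 0.05. None was above 0.5 and 1 was below -0.5, where 3.24% of all measured genes were below -0.5. That one was Rnf145, a sterol-responsive ubiquitin ligase gene, with a signal of 592 in the oleanolic acid array and 853 in the control array (log2 ratio -0.53, probe set SD 0.13). The ubiquitin-conjugating enzyme gene Ube2g2 had the highest value, 0.44 (probe set SD 0.24; 0.24 with every probe set counted as measured), followed by Nploc4 (0.12) and Aup1 (0.08).

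Cholesterol synthesis genes, which SREBP2 drives, mostly had somewhat higher signals in the oleanolic acid array, opposite in sign to Stard4. Of 22 listed, 15 were measured: 11 were above 0 and 4 below, 2 were above 0.5 and none below -0.5, and the median was 0.18. Over all 7137 measured genes 3583 were above 0 and 3547 below, and 2.63% were above 0.5. Sqle (squalene epoxidase) had 121 in the oleanolic acid array and 84.5 in the control array (log2 ratio 0.51, probe set SD 0.27). Pmvk was at 0.50 (probe set SD 0.24) and the sterol reductase gene Tm7sf2 at 0.46 (probe set SD 0.13). Hmgcs1, at the entry to the pathway, had 1463 in the oleanolic acid array and 1100 in the control array, and its log2 ratio was 0.41 ± 0.07 (SD, n = 4 probe sets). Cyp51, the lanosterol demethylase gene, was at 0.44 ± 0.06 (SD, n = 2 probe sets).

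Fatty acid synthesis genes, which SREBP1 drives, were mostly below 0. Of 18 listed, 14 were measured: 2 were above 0 and 12 below, none was above 0.5 and 2 were below -0.5, with a median of -0.16. Of all measured genes, 3547 of 7137 were below 0, 3.24% below -0.5 and 0.631% below -1. Both lay below -1: Thrsp (-1.61 ± 0.27, SD, n = 2 probe sets), a lipogenic nuclear protein gene, and Elovl6 (-1.01 ± 0.08, SD, n = 2 probe sets), the elongase of palmitate. Elovl6 lay just above -1 in 3 alternatives: -0.99 with quantile normalization, -0.99 with lowess centring and -0.95 with its brightest probe set alone. Acly, which makes cytosolic acetyl-CoA, was at -0.46 ± 0.30 (SD, n = 3 probe sets) and Elovl5 at 0.35 ± 0.06 (SD, n = 2 probe sets). Fatty acid synthase gene Fasn had 1104 in the oleanolic acid array and 1278 in the control array (log2 ratio -0.21, probe set SD 0.13). The desaturase gene Scd1 was at -0.03 ± 0.08 (SD, n = 2 probe sets). With the brightest probe set alone it was 0.03, and in that setting 5 of the 14 genes were above 0 and 9 below. With every probe set counted as measured, 5 of 16 genes were above 0 and 11 below. Acaca was under the signal minimum, with 44.7 in the oleanolic acid array and 36.5 in the control array.

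Upstream of Srebf1, 16 of 21 listed regulators were measured, with a median of -0.03. None was above 0.5 and 1 was below -0.5, beside 3.24% of all measured genes below -0.5. The exception was Lpin1, a phosphatidate phosphatase that also restrains nuclear SREBP, with 1069 in the oleanolic acid array and 2370 in the control array (log2 ratio -1.15 ± 0.03, SD, n = 2 probe sets). Foxo1, a factor restrained by insulin signalling, was at -0.48 ± 0.08 (SD, n = 3 probe sets). The insulin receptor substrate genes Irs1 and Irs2 were at 0.27 and -0.20. Nr1h3, which encodes the liver X receptor LXR alpha, an activator of Srebf1, was at 0.09 (probe set SD 0.17).

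Targets of LXR lay close to 0, most of them just below it. All 9 listed were measured, with 2 above 0, 7 below and a median of -0.02, where 3547 of all 7137 measured genes were below 0. None was above 0.5 and 1 was below -0.5, against 3.24% of all measured genes below -0.5. Cyp7a1, which catalyses the first step of bile acid synthesis, had 658 in the oleanolic acid array and 1022 in the control array (log2 ratio -0.64 ± 0.02, SD, n = 2 probe sets). The sterol exporter gene Abcg5 was at -0.33, the exporter gene Abcg1 at 0.20 and Mylip, a ubiquitin ligase gene, at 0.21.

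Other sterol carriers were not as low as Stard4. Of 22 listed, 16 were measured, and 16 of 16 lay within 0.5 of 0 with a median of -0.10. Stard5, a START-domain relative of Stard4, had 522 in the oleanolic acid array and 719 in the control array, and its log2 ratio was -0.46 ± 0.09 (SD, n = 3 probe sets). With _x_at and _s_at probe sets left out it was -0.56, which put 1 of 15 sterol carriers below -0.5. Stard8 was at -0.39 (probe set SD 0.24), Osbpl2 at -0.29 and the phosphatidylcholine carrier gene Pctp at 0.29 ± 0.06 (SD, n = 2 probe sets). Other membrane-bound factors and proteins cut by the site-1 protease had 6 of 9 measured, all 6 within 0.5 of 0, with a median of -0.02. Their largest values were those of Creb3l2 (-0.30 ± 0.12, SD, n = 2 probe sets), the liver factor gene Creb3l3 (0.15), Atf6 (-0.13) and Creb3 (0.11 ± 0.10, SD, n = 3 probe sets; 0.002 with the brightest alone).

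**Figure D4:**
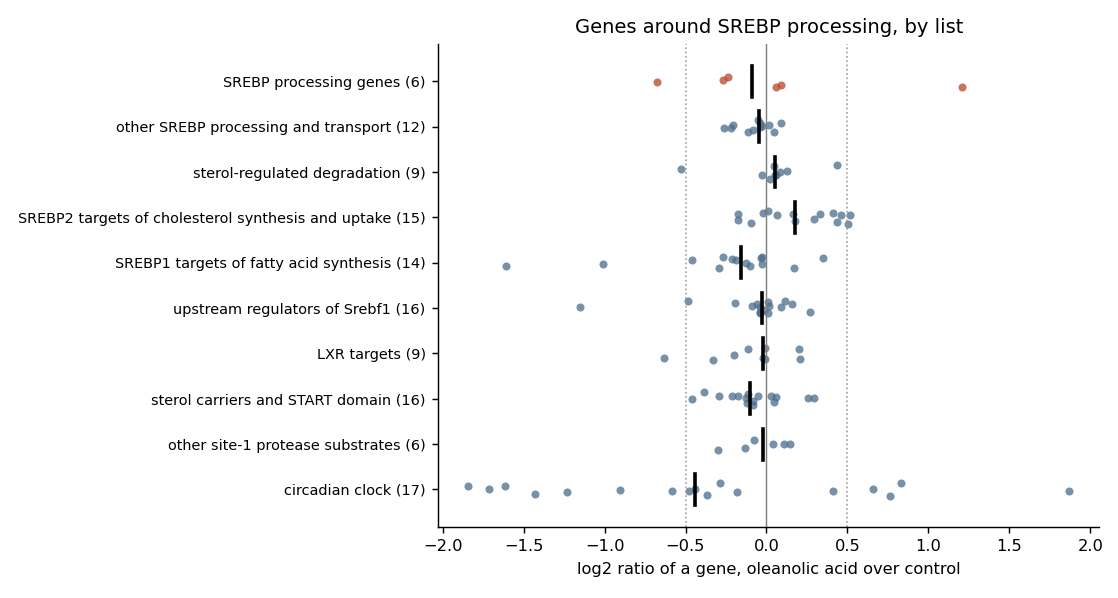
Log2 ratio, oleanolic acid over control, of each measured gene in the SREBP processing set (red) and in 9 lists around it (blue), with the number measured in parentheses. Black bars are medians, dotted lines mark 0.5 in either direction, and vertical jitter has no meaning. Insig2 (1.21) lies outside the range of every list but the circadian clock, where only Arntl (1.87) lies above it.

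The circadian clock was the one list here with values as large in size as that of Insig2 in both directions. On the higher side this rested on Arntl alone: 1 clock gene was above 1 and 5 were below -1. Of 17 measured genes, 4 were above 0.5 and 7 below -0.5, beside 2.63% and 3.24% of all measured genes. The median was -0.44. Nr1d1, which encodes REV-ERB alpha, had a signal of 107 in the oleanolic acid array and 60.4 in the control array (log2 ratio 0.83, probe set SD 0.27). The clock activator gene Arntl had 92.5 in the oleanolic acid array and 25.3 in the control array (log2 ratio 1.87, or 0.59 with the floor at the array median). Among the lower genes, Per3 was at -1.84 (-0.82 with every probe set counted as measured), Usp2 at -1.71 and Noct at -1.61. Like Insig2, Nr1d1 and Arntl were higher in the oleanolic acid array. Nr1d2 and Dbp, which were brighter, were lower there. Nr1d2 had 1598 in the oleanolic acid array and 2392 in the control array (log2 ratio -0.58, probe set SD 0.13). Dbp had 825 in the oleanolic acid array and 1936 in the control array (log2 ratio -1.23 ± 0.065, SD, n = 2 probe sets). The control signals of Nr1d1 and Arntl were under the control median of 61.5. These 2 genes thus counted as measured only through the oleanolic acid array. With both arrays required to reach the median neither was measured, and of 14 clock genes 2 were above 0 and 12 below. In the main setting 12 of the 17 clock genes were below 0, beside 3547 of all 7137 measured genes. The part of the clock genes in the Insig2 difference was not tested.

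Likeness to Insig2 and Stard4 was measured as the distance between log2 ratios, over 2 arrays, among the 44 listed genes that had 2 or more measured probe sets. The nearest to Insig2 was Clock, at 0.76 ± 0.13 (SD, n = 2 probe sets), a difference of -0.44 from Insig2. Next came Cyp51 and Hmgcs1, with differences of -0.77 and -0.79, so Insig2 stood above all 44 genes by this measure. The clock genes Nr1d1 (0.83) and Arntl (1.87) had 1 measured probe set each and were not among the 44. The nearest to Stard4 was Cyp7a1, higher by 0.04, followed by Foxo1 (0.19) and Stard5 (0.22).

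The arrays were alike in scale and in the controls for transcript integrity. The ratio of 3′ to 5′ signal was 0.784 in the oleanolic acid array and 0.764 in the control array for Gapdh, and for beta-actin it was 1.79 in the oleanolic acid array and 1.71 in the control array. Of 9 hepatocyte markers 8 were measured, with summed signals of 111100 in the oleanolic acid array and 109500 in the control array. Summed signals of the exocrine pancreas markers were 455 in the oleanolic acid array and 1640 in the control array, with 8 of 8 measured genes below -0.5. B and plasma cell markers summed to 482 in the oleanolic acid array and 1594 in the control array, and both measured genes were below -0.5. Fat markers summed to 421 in the oleanolic acid array and 930 in the control array, with 3 of 3 measured genes below -0.5. Macrophage, endothelial and stellate markers differed less, with ratios of sums, oleanolic acid over control, of 0.947, 0.999 and 0.977. Past 0.5 in these lists there were 1 of 10 macrophage genes below, 1 of 5 stellate genes above and none of 6 endothelial genes, and 1 of 8 hepatocyte genes was below. The 1 measured cholangiocyte gene, Epcam, had a log2 ratio of -0.94, with summed list signals of 135.0 in the oleanolic acid array and 134.6 in the control array. Over all measured genes, 2.63% were above 0.5 and 3.24% below -0.5. A gene counted as measured through its higher signal alone. Dim markers could thus enter these lists through the control array only, and such genes are lower in the oleanolic acid array by construction. For that reason nothing is read from the counts of pancreas, B and plasma cell, fat and cholangiocyte genes. The part of these other cell types in the values of Insig2 and Stard4 was not tested.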

How the data were processed

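Biotin-labelled cRNA of 1 liver RNA pool per diet was hybridized to an Affymetrix array, per the labels' protocols. The deposited intensities are linear probe set signals, for which the submitters' processing notes name MAS5, and their mean after trimming 2% at each end was 300.1 on both arrays. No version, genome build or detection call is given in the sources used here, so whether a dim signal was above background is unknown. The number of arrays limits the precision.

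Of 22690 probe sets, 64 Affymetrix controls were left out. The platform annotation gave 20380 of the others 1 gene symbol, 691 several and 1555 none, and only the first kind was used. Of these, 20351 matched a RefSeq gene of GRCm38.p6. Signals were raised to each array's 25th percentile (10.1 in oleanolic acid, 10.7 in control) before log2 was taken. A probe set was measured when its higher signal reached the array median, which left 11642 probe sets and 7137 genes. A gene's ratio averages those of its measured probe sets, and its signal their geometric mean. Its error is the SD between them or, with 1 probe set, the pooled SD of its signal band (0.27, 0.24, 0.17 and 0.13 from dim to bright). An SD from 2 probe sets can fall far below the pooled SD, as it did for Stard4, Cyp7a1 and Lpin1. Sums over markers use every probe set as deposited.

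The genes named are the 7 members and up to 4 genes per list with the largest absolute log2 ratio. A fixed set of 16 pathway genes was added where measured, with the 3 nearest genes to each of the 2 members with the largest ratios. Named outside this rule were the marker genes Cela3b and Epcam and the clock genes Nr1d2 and Dbp. The members and lists were chosen with earlier results of these data known. Python 3.11.15, pandas 2.3.3 and statsmodels 0.14.6 were used, and the procedure was tested on simulated data. Alternatives covered the floor, the filter, the normalization and the choice of probe sets.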

Additional observations from a re-analysis of the deposited data

How the results depend on the processing

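Under 8 alternatives the log2 ratio of Insig2 ranged from 1.17 to 1.22, that of Stard4 from -0.69 to -0.66, that of Srebf1 from -0.26 to -0.24 and that of Scap from 0.08 to 0.09. Mbtps1 ranged from -0.02 to 0.08. Srebf2 was at 0.001 with every probe set counted as measured, since its 2 probe sets then cancel, and had no measured probe set when the median was required of both arrays. Medians of the 9 gene lists moved by less than the pooled probe set SD of 0.203 in every alternative run. Past 0.5, members of the lists other than the clock changed in 3 cases: Foxo1 was at -0.55 with its brightest probe set alone, and Acly at -0.60 and Stard5 at -0.56 with _x_at and _s_at probe sets left out.

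Counts over all genes moved with the treatment of dim probe sets. The main counts were 8 genes above 1.5, 20 below -1.5, 28 above 1, 45 below -1, 188 above 0.5 and 231 below -0.5. With the floor at the array median there were 5 above 1.5, 5 below -1.5, 18 above 1 and 25 below -1. With both arrays required to reach the median there were 5 above 1.5, 5 below -1.5, 18 above 1, 18 below -1 and 145 below -0.5. With every probe set counted as measured there were 34 below -1.5, 64 above 1, 122 below -1, 452 above 0.5 and 691 below -0.5. The filters admit fewer or more dim probe sets, and the higher floor raises low signals of the same probe sets, by construction. No paired analysis was possible because each diet has 1 array.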
